A study of Mus musculus with 6 samples.

Results

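The genes described here are 36 genes that act at mitosis: cyclins and their kinase, the mitotic kinases, the spindle checkpoint, regulators and substrates of the anaphase-promoting complex (APC/C), centromere proteins, spindle motors and cytokinesis factors. They were taken by name, and each was read from the probe set annotated to that symbol alone with the highest mean signal over all arrays. A probe set of this kind was found for 35 of the 36, out of 18193 genes with one. The signal of Ccnb1 (cyclin B1) was not analysed here, though its promoter is among those counted below. The cells were mouse embryonic stem cells, derivatives of the line E14TG2a on a 129P2 background, kept in the serum-free neural induction medium N2B27 for 2 days. They carried a doxycycline-inducible shRNAmir, a hairpin RNA that is processed like a microRNA, against Geminin (Gmnn), an inhibitor of replication licensing that is itself degraded at mitosis. Cells given 500 ng doxycycline (GemKD) were compared with the same cells left without it, with 1 array of each in each of 3 independent experiments on Affymetrix arrays of the mouse genome. Experiments 1 and 3 used the line with shRNAmir 11 and experiment 2 the line with shRNAmir 9. Every GemKD array therefore also came from cells with doxycycline, so that the knockdown and the drug cannot be told apart, and uninduced cells also carried the hairpin construct. Hairpin, line and experiment 2 coincide. The sources used here do not give how the lines were cloned.

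Mitosis is driven by Cdk1 bound to cyclins A and B, which Cdc25 phosphatases switch on and which is reinforced by the Polo and Aurora kinases. The spindle checkpoint holds the APC/C inactive until every kinetochore is attached to microtubules, after which the APC/C marks securin and the cyclins for destruction, separase cuts cohesin, and the central spindle guides cleavage. Most of these genes are transcribed in late S, G2 and M phase, through promoters with CCAAT boxes (bound by NF-Y) and a cell cycle gene homology region (CHR, bound by the DREAM and MuvB complexes). In a mixed culture their transcript levels therefore also depend on how many cells are near mitosis.

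Both elements occurred together in 20 of the 30 promoters counted. In RefSeq sequences (build GRCm38.p6) from 250 bases before to 50 after the start of transcription, found for 30 of the 36 genes, the CHR letters TTTGAA were present on either strand in 20 (66.7%), against 18.1% of 27025 gene promoters. The variant TTCGAA was present in 4 (13.3%, against 1.57%). CCAAT was present on either strand in 24 (80%, against 37.9%), and at least 2 copies in 15 (50%, against 12.2%). Those 20 with either form of CHR and CCAAT made up 66.7%, against 7.7% of the 27025. The promoters of Mad2l1, Pttg1, Nusap1 and Birc5, 4 in all, had none of these letters (13.3%, against 50.3%). Motifs were counted separately and may share a letter, and a match describes the sequence only. The last 100 bases before the start are given for 4 genes with both elements, of which the first 3 were lower in experiment 3 and Cdc20 was not called there, and for the 2 that were higher. Capitals mark TTTGAA or its reverse complement TTCAAA, and CCAAT or its reverse complement ATTGG, with each sequence written 5′ to 3′ in the direction of transcription.
Cdk1 (chr10:69352913-69353012, minus strand): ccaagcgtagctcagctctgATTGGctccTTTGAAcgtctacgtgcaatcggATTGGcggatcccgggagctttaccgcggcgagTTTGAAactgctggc
Kif11 (chr19:37376282-37376381, plus strand): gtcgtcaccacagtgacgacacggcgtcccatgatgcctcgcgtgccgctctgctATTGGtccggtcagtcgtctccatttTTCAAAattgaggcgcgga
Top2a (chr11:99024190-99024289, minus strand): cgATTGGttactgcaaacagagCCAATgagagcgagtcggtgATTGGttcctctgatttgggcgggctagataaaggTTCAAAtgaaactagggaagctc
Cdc20 (chr4:118437344-118437443, minus strand): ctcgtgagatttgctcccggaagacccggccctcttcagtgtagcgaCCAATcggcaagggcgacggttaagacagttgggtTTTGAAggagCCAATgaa
Mad2l1 (chr6:66535121-66535220, plus strand): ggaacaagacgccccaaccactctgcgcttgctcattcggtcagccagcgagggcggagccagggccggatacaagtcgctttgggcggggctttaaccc
Pttg1 (chr11:43425982-43426081, minus strand): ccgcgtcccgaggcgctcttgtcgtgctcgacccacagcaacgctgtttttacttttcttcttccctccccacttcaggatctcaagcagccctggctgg

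All 35 genes lay above the signal filter that left 14185 genes for testing, with mean signals over the arrays from 176 to 7108. The median signal of all 45037 probe sets was between 59.3 and 60.9 on every array. Gmnn itself read 3558, 3477 and 3463 in the uninduced cells of experiments 1, 2 and 3 and 983, 1669 and 1269.6 in GemKD cells, which is 27.6%, 48.0% and 36.7% of control. The GemKD arrays did not overlap the controls (exact permutation test, two-sided p = 0.1, the smallest that 3 against 3 allows). The labelled neurectoderm still read between 7338 and 7711 for the pluripotency factor Pou5f1 on all arrays, with Sox1 between 523 and 2443 and Pax6 between 135 and 823, both lowest in experiment 3.

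The first comparison asked whether lowering Geminin changed the mitotic genes at day 2. None of the 35 genes passed the test, and Gmnn itself passed it with the experiment as a block but not without (log2 difference -1.44, limma adjusted p = 2.76e-06 and 0.338). In the fit over all genes (limma, 3 arrays against 3, adjusted p under 0.05), 0.00705% of the genes tested were called and 0 of the 35 mitotic genes were, the smallest adjusted p among them being 0.9998. At an unadjusted p under 0.05 there were 0 mitotic genes and 0.867% of all genes. A fit with each experiment as a block called 5 genes in all (0.0352%), again with 0 mitotic genes, which also held at an unadjusted p under 0.05 (4.76% of all genes). The median log2 difference over the 35 genes was -0.0027, beside 0.0023 over all genes tested, and single genes ranged from -0.07 (Pttg1) to 0.17 (Cenpe). The 95% interval lay within 0.25 of 0 on the log2 scale for 21 of the 35 genes, with bounds over the set from -0.38 to 0.63. In the fit with the block it did so for 33, with bounds from -0.26 to 0.44.

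**Figure D1:**
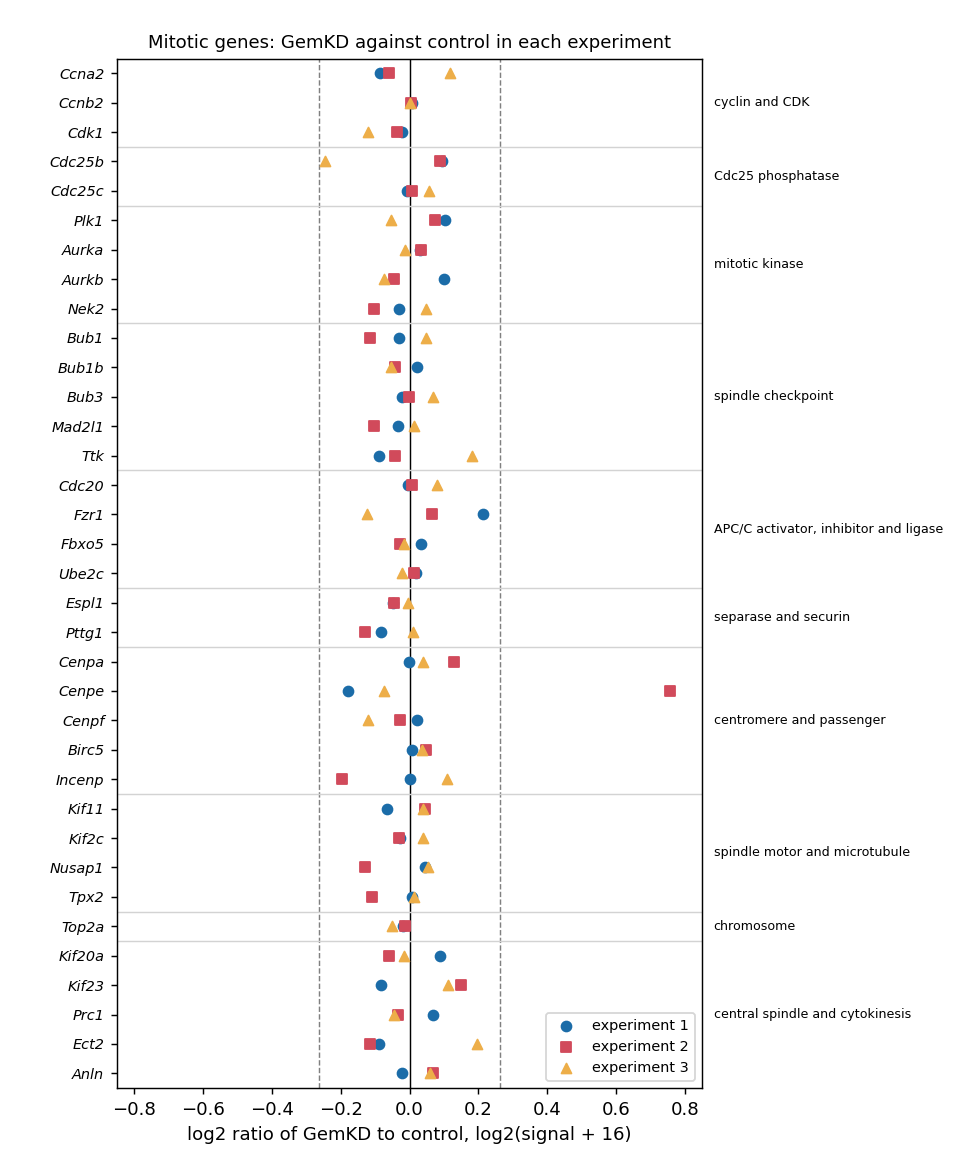
Log2 ratio of GemKD to uninduced signal (after adding 16) for each of the 35 mitotic genes, with 1 point per experiment and the genes grouped by role. Of the 105 ratios, 82 lie within 0.1 of 0, and the only one far outside is Cenpe in experiment 2 at 0.76.

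In the values that follow, each pair gives the uninduced and then the GemKD signal of an experiment. Cyclin A2 (Ccna2), which activates Cdk1 and Cdk2 in S and G2 phase, read 3509 and 3308 in experiment 1, 3384 and 3248 in experiment 2, and 3382 and 3669 in experiment 3. Cyclin B2 (Ccnb2), a partner of Cdk1, read 4059 and 4083 in experiment 1, 4013 and 4024 in experiment 2, and 3406 and 3409.7 in experiment 3. Cdk1, the kinase that drives entry into mitosis, read 6259 and 6169 in experiment 1, 6229 and 6068 in experiment 2, and 5991 and 5509 in experiment 3. GemKD was lower than its control in every experiment for Cdk1 and higher in every experiment for Ccnb2, but by at most 0.12 and 0.0084 on the log2 scale. The 3 cyclin and Cdk genes had GemKD and control values that overlapped.

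Among the mitotic kinases, Polo-like kinase 1 (Plk1), which acts at centrosomes and kinetochores, read 2487 and 2673 in experiment 1, 2489.6 and 2622 in experiment 2, and 2588 and 2494 in experiment 3. Aurora A (Aurka), the kinase of the spindle poles, read 1935 and 1976 in experiment 1, 1902 and 1948 in experiment 2, and 1873 and 1856 in experiment 3. Nek2, which separates the centrosomes, read 1483 and 1452 in experiment 1, 1594 and 1483 in experiment 2, and 1414 and 1462 in experiment 3. No sign was shared by the 3 experiments in Plk1, Aurka or Nek2. Aurkb, the passenger complex kinase, had log2 ratios of 0.10, -0.04 and -0.08 in experiments 1, 2 and 3. The phosphatase Cdc25b, an activator of Cdk1, read 168 and 181 in experiment 1, 189 and 202 in experiment 2, and 173 and 144 in experiment 3. Its ratio in experiment 3, -0.24, was the lowest of all 105.

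The checkpoint kinase Ttk (Mps1) read 1615 and 1516 in experiment 1, 1597 and 1549 in experiment 2, and 1339.8 and 1521 in experiment 3. Bub3, which brings Bub1 and BubR1 to kinetochores, read 4635 and 4566 in experiment 1, 4581 and 4575 in experiment 2, and 4768 and 5001 in experiment 3. The ratios of Bub1, a checkpoint kinase, were -0.03, -0.12 and 0.05. Those of Bub1b (BubR1), part of the complex that blocks Cdc20, were 0.02, -0.04 and -0.05, and those of its partner Mad2l1 (Mad2) were -0.03, -0.10 and 0.01. Of the 5 checkpoint genes, the largest ratio in either direction was 0.18. For the APC/C, the activator Cdc20 read 7102 and 7074 in experiment 1, 7186 and 7226 in experiment 2, and 6832 and 7227 in experiment 3. Ube2c, the ubiquitin-conjugating enzyme of the APC/C, read 5557 and 5626 in experiment 1, 5463 and 5513 in experiment 2, and 5399.9 and 5318 in experiment 3. The inhibitor Fbxo5 (Emi1) had ratios of 0.03, -0.03 and -0.02. The activator of late mitosis and G1, Fzr1 (Cdh1), had ratios of 0.21, 0.07 and -0.12, the first being the highest of the set outside Cenpe.

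Securin (Pttg1), which holds separase inactive, gave ratios of -0.08, -0.13 and 0.01, and separase (Espl1) read 1442 and 1396 in experiment 1, 1452 and 1409 in experiment 2, and 1378 and 1374 in experiment 3. Espl1 and Top2a, with Cdk1, were the 3 genes lower in GemKD in all experiments (a pattern of 11.7% of all genes), and Ccnb2 and Birc5 the 2 that were higher in all (12.2%). Birc5 (survivin), the passenger protein that brings Aurora B to centromeres, read 3520.0 and 3538 in experiment 1, 3599 and 3725 in experiment 2, and 3654 and 3750.0 in experiment 3. Cenpa, the histone variant of centromeres, read 3549 and 3549 in experiment 1, 3339.9 and 3655 in experiment 2, and 3282 and 3373 in experiment 3. For none of these genes did all 3 GemKD arrays lie below or all above every control, which occurred below the controls in 2.24% and above them in 2.09% of all genes. The kinesin-5 motor Kif11, which pushes the spindle poles apart, had ratios of -0.07, 0.05 and 0.04, and topoisomerase Top2a, which untangles sister chromatids, -0.02, -0.01 and -0.05. Kif23, a central spindle kinesin, read 2019 and 1907 in experiment 1, 1838 and 2041 in experiment 2, and 1769 and 1913 in experiment 3. Kif20a, a kinesin of the central spindle, read 1622 and 1728 in experiment 1, 1709 and 1638 in experiment 2, and 1529 and 1513 in experiment 3. Neither had a sign shared by all experiments.

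Within single experiments, where 1 array stands against 1 and no test exists, 0 of the 35 mitotic genes were past 1.2-fold in experiment 1 (15.2% of all genes), 1 in experiment 2 (17.1%) and 0 in experiment 3 (21.8%). Of the 8602 genes with a mean signal at least that of Cdc25b, the lowest among the 35, the shares were 5.28%, 7.68% and 8.34%.

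The 1 gene past that fold was Cenpe, the kinesin that carries chromosomes to the spindle equator, which read 1447 and 1275 in experiment 1, 845 and 1439.9 in experiment 2, and 1135 and 1078 in experiment 3. The uninduced array of experiment 2 was low and the other 5 lay between 1078 and 1447, so that the GemKD to control ratios were -0.18, 0.76 and -0.07. A second Cenpe probe set gave -0.14, -0.07 and -0.14. In a test of whether the GemKD effect differed between the hairpins, blocked on experiment, limma called 46 genes (0.324% of those tested), and Cenpe was the 1 mitotic gene among them (log2 difference 0.88, adjusted p = 2.56e-05). Without the block 0 genes were called, with 70 at an unadjusted p under 0.05 (0.493%), and the adjusted p of Cenpe was 0.99997. One array each stands for the shRNAmir 9 line with and without doxycycline. The blocked fit therefore has 1 residual degree of freedom, from experiments 1 and 3 of the other line, and limma took each gene's spread from the trend over all genes. Both shRNAmir 9 arrays are assumed to vary in the same way, so the p-value does not measure the spread of that line, and a hairpin difference was not tested over repeats.

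Other probe sets, chosen after their values were seen, were low on the same control array. A second Cenpf probe set read 717 and 661 in experiment 1, 445 and 742 in experiment 2, and 547 and 567 in experiment 3. A second probe set of Incenp, the scaffold of the passenger complex, read 391 and 425 in experiment 1, 279 and 421 in experiment 2, and 449 and 390.3 in experiment 3. Neither pattern was seen on the probe sets used for these genes: that of Incenp read 3090.4 and 3094 in experiment 1, 3759.6 and 3278 in experiment 2, and 3037 and 3275 in experiment 3, with the experiment 2 control the highest. In the set of spindle genes outside the 35, Aspm, a spindle pole protein, read 1514 and 1495 in experiment 1, 962 and 1588 in experiment 2, and 1078 and 1147 in experiment 3. The phosphatase Cdc25a read 2196 and 2137 in experiment 1, 1469.6 and 2217 in experiment 2, and 2439 and 2639 in experiment 3. Malat1, a nuclear long noncoding RNA, read 8124 and 7285 in experiment 1, 4519 and 7625 in experiment 2, and 7268 and 6517 in experiment 3. Of 74 mitotic probe sets above the filter 3 (of Cenpe, Cenpf and Cenpa) were past 1.5-fold higher in GemKD in experiment 2, against 2.06% of all. Without the experiment 2 control, the log2 difference between GemKD and control in Cenpe over all experiments was -0.03 in place of 0.17.

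**Figure D2:**
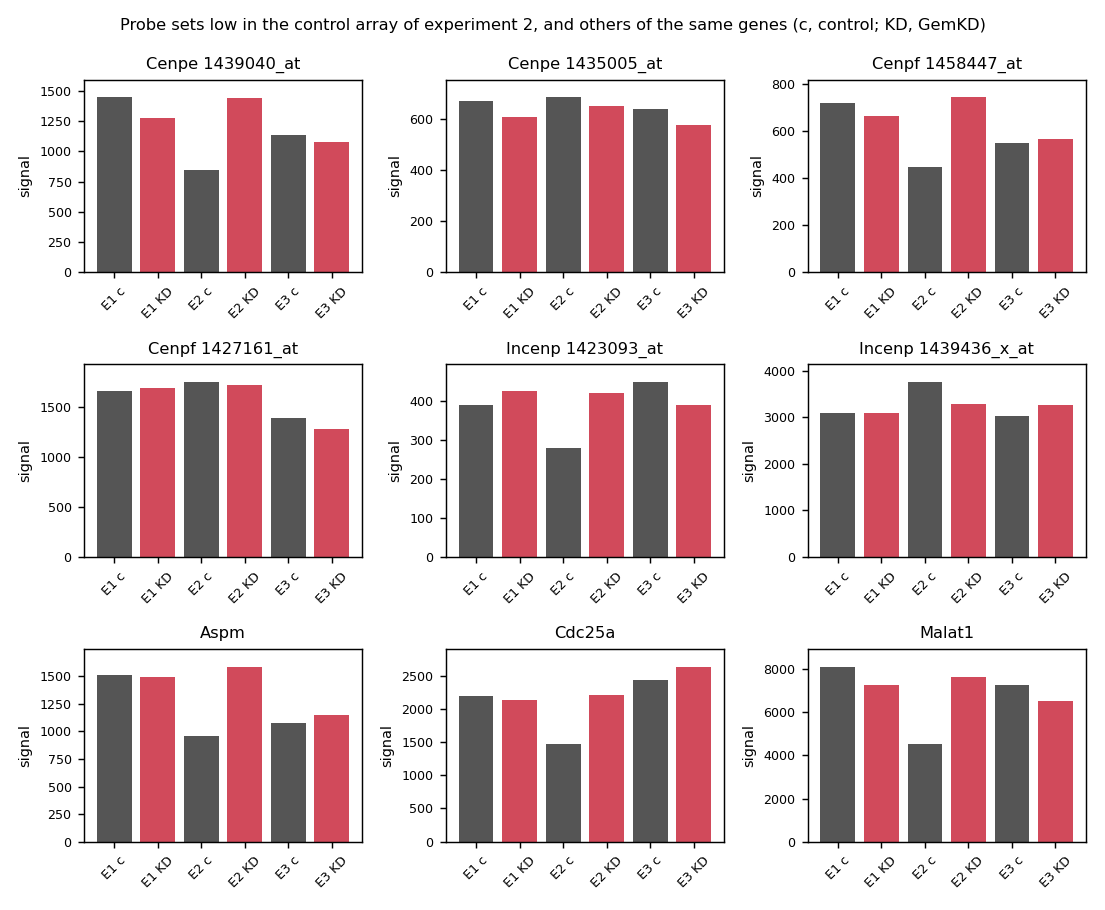
Bars give the signal on each of the 6 arrays (E1 to E3, the experiments; grey, uninduced; red, GemKD) for both probe sets of Cenpe, 2 each of Cenpf and Incenp, and Aspm, Cdc25a and Malat1. The uninduced array of experiment 2 is the lowest for 1 probe set of each mitotic gene, at 845 against at least 1078 in Cenpe, and not on the other one shown.

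The second comparison set the 2 arrays of experiment 3 against the 4 of experiments 1 and 2, with treatment as a term. Of the 35 genes 17 were lower and 2 higher in experiment 3 (limma, adjusted p under 0.05), and 30 had a negative difference, with a median of -0.14 on the log2 scale. Experiment 3 differed widely at large: 34% of all genes were called, 22.1% lower and 11.9% higher, with a median of -0.04. A negative difference was found in 7920 of all 14185 genes. Among the 8602 genes at least as high in signal as Cdc25b, 29% were lower and 14.4% higher, with a median of -0.06 and 5189 negative differences. Both experiment 3 arrays lay below all 4 others for 21 mitotic genes (31% of all genes) and above them for 3 (19.7%). The median difference over the 35 was -0.12 in uninduced cells and -0.12 in GemKD cells, beside -0.06 and -0.03 over all genes. Single genes differed more between uninduced and GemKD cells, as in Ect2 (-0.40 and -0.11) and Cdc25b (-0.04 and -0.38). Each experiment was run once, so the tests measure the spread between arrays of an experiment. Summed over all genes tested, signal was 1.278e+07 to 1.289e+07 in experiments 1 and 2 and 1.231e+07 to 1.261e+07 in experiment 3. Experiment 3 was 1 run, so its culture, hybridisation and array scaling cannot be told apart. In a bulk culture, fewer cells near mitosis and less RNA per cell cannot be told apart either.

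**Figure D3:**
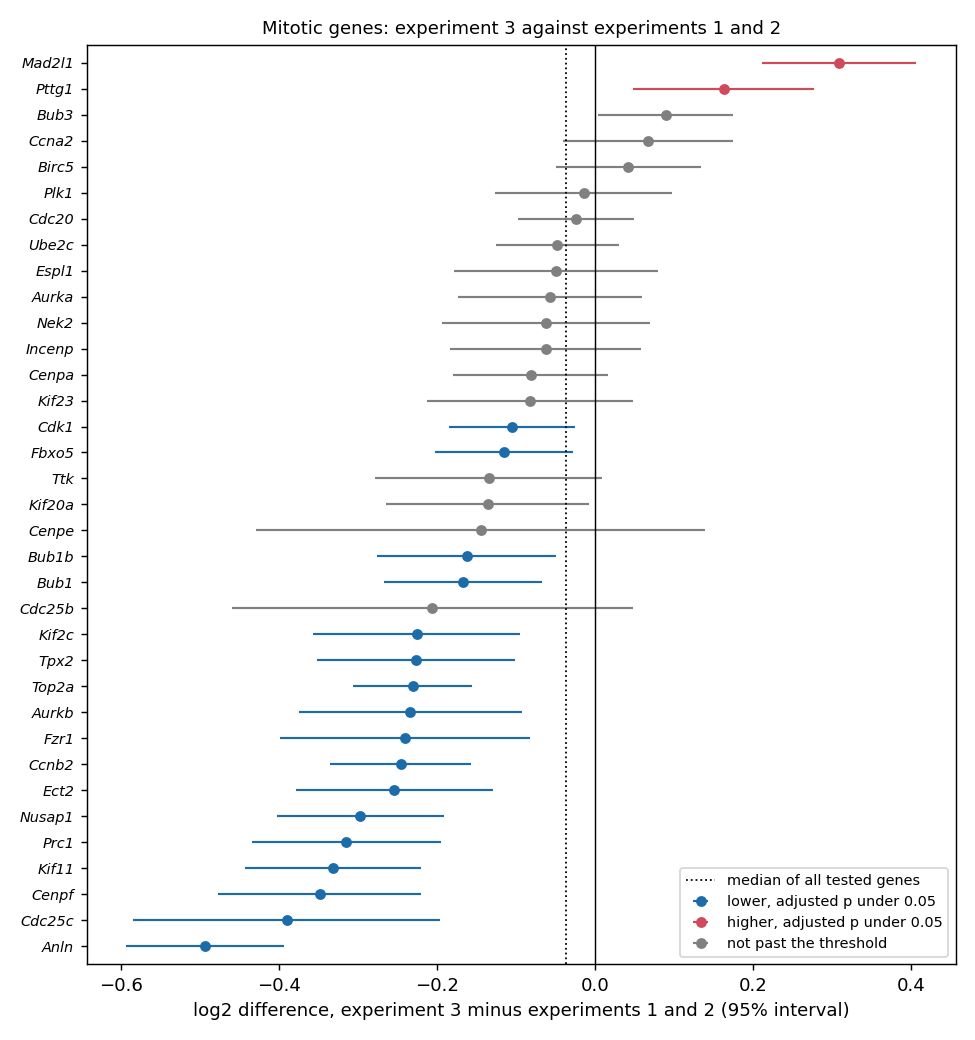
Log2 difference between experiment 3 and the mean of experiments 1 and 2 for each mitotic gene, with 95% confidence intervals from limma, in blue (lower) or red (higher) where the adjusted p is under 0.05 and a dotted line at the median of all genes. Anln is lowest at -0.49 and Mad2l1 highest at 0.31.

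Of the 5 central spindle and cytokinesis genes 3 were lower. Anillin (Anln), which links actin, myosin and septins in the cleavage ring, read 3527 and 3474 in experiment 1, 3348 and 3512 in experiment 2, and 2405 and 2508 in experiment 3. Both arrays of experiment 3 stood apart from the other 4 (log2 difference -0.49, SE 0.047, adjusted p = 1.66e-06), a fall by 29.0%, with a 95% interval of -0.59 to -0.39. Prc1, which bundles the microtubules of the central spindle, read 1952 and 2048 in experiment 1, 2077 and 2028 in experiment 2, and 1652 and 1599 in experiment 3, again with no overlap (log2 difference -0.31, SE 0.056, adjusted p = 5.63e-04). Ect2, the exchange factor that activates RhoA at the cleavage furrow, read 3785 and 3555 in experiment 1, 3934 and 3633 in experiment 2, and 2913 and 3340.2 in experiment 3 (log2 difference -0.25, SE 0.058, adjusted p = 0.00357). The 2 central spindle kinesins did not pass the test, with differences of -0.14 (Kif20a) and -0.08 (Kif23).

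All 4 spindle motor and microtubule genes were lower. Kif11 read 2672 and 2551 in experiment 1, 2508 and 2589.6 in experiment 2, and 2018 and 2075 in experiment 3 (log2 difference -0.33, SE 0.052, adjusted p = 1.89e-04). Nusap1, which bundles spindle microtubules near chromosomes, read 3552 and 3669 in experiment 1, 3936 and 3598 in experiment 2, and 2941 and 3052 in experiment 3 (log2 difference -0.30, SE 0.049, adjusted p = 3.15e-04). Experiment 3 lay below both other experiments in each. Tpx2, the activator of Aurora A on the spindle, read 1766 and 1774 in experiment 1, 1882 and 1745 in experiment 2, and 1522 and 1534 in experiment 3 (log2 difference -0.23, SE 0.058, adjusted p = 0.00752). Kif2c (MCAK), which depolymerises microtubules at centromeres, read 1441 and 1414 in experiment 1, 1495 and 1464 in experiment 2, and 1224 and 1257 in experiment 3 (log2 difference -0.23, SE 0.061, adjusted p = 0.0102). Top2a read 6408 and 6328 in experiment 1, 6435 and 6382 in experiment 2, and 5539 and 5345 in experiment 3 (log2 difference -0.23, SE 0.035, adjusted p = 1.53e-04), with its experiment 3 arrays below all others.

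**Figure D4:**
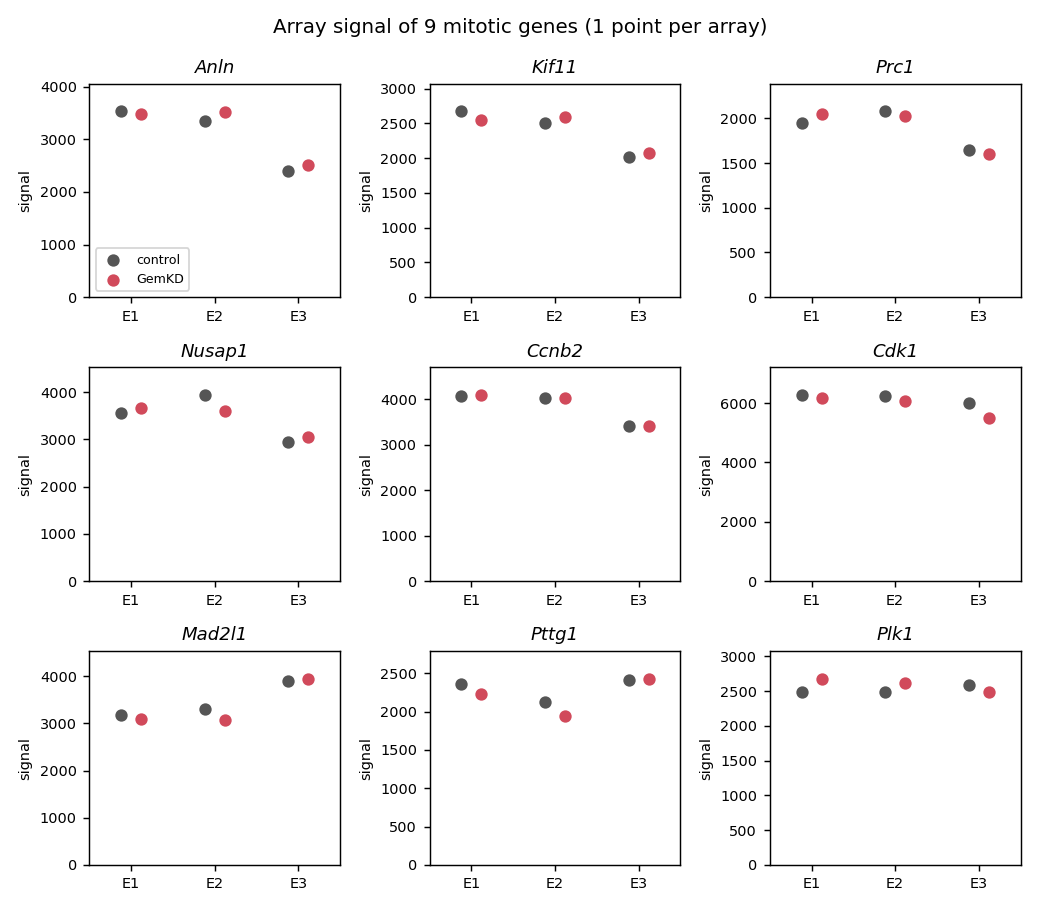
Signal on each of the 6 arrays for 9 mitotic genes, uninduced and GemKD cells side by side in each experiment. Both experiment 3 arrays are the lowest for Anln, Kif11, Prc1, Nusap1, Ccnb2 and Cdk1 and the highest for Mad2l1 and Pttg1, while Plk1 overlaps.

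Of the Cdk1 regulators, Cdc25c, the phosphatase that Plk1 and Cdk1 activate at mitotic entry, read 389 and 387 in experiment 1, 399 and 401 in experiment 2, and 290.4 and 303 in experiment 3 (log2 difference -0.39, SE 0.091, adjusted p = 0.0039). Ccnb2 was lower as well (log2 difference -0.25, SE 0.042, adjusted p = 3.79e-04), as was Cdk1 (log2 difference -0.11, SE 0.037, adjusted p = 0.0398), whose 95% interval of -0.18 to -0.03 includes the median of all genes. Ccna2 did not pass the test, with a difference of 0.07 and a 95% interval of -0.04 to 0.18. Cdc25b, at -0.21, did not pass it either, with values that overlapped. Of the 4 kinases, Aurkb was the 1 called, and read 1243 and 1332 in experiment 1, 1392 and 1350.1 in experiment 2, and 1157 and 1098 in experiment 3 (log2 difference -0.23, SE 0.066, adjusted p = 0.0128). Plk1 (-0.01, interval -0.13 to 0.10), Aurka (-0.06) and Nek2 (-0.06) were not.

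At the kinetochore, Cenpf, a large protein of the outer plate that peaks in G2 and M phase, read 1667 and 1694 in experiment 1, 1753 and 1719.6 in experiment 2, and 1396 and 1282 in experiment 3 (log2 difference -0.35, SE 0.06, adjusted p = 4.30e-04). It was the 1 gene called of the 5 centromere and passenger genes, where Cenpa, Cenpe, Incenp and Birc5 had differences of -0.08, -0.14, -0.06 and 0.04. Cenpe was called lower when the experiment 2 control was left out (-0.37, adjusted p = 2.29e-04), when both arrays of experiment 2 were (-0.29, adjusted p = 0.0068), and when the GemKD array of experiment 1 was (-0.28, adjusted p = 0.0112).

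The spindle checkpoint split. Bub1 read 3761 and 3682 in experiment 1, 3903 and 3602 in experiment 2, and 3270.2 and 3381 in experiment 3 (log2 difference -0.17, SE 0.047, adjusted p = 0.0122). Bub1b read 2142 and 2175 in experiment 1, 2204 and 2141 in experiment 2, and 1969 and 1896 in experiment 3 (log2 difference -0.16, SE 0.053, adjusted p = 0.028). Mad2l1, in contrast, read 3171 and 3099.6 in experiment 1, 3305 and 3078 in experiment 2, and 3902 and 3939 in experiment 3 (log2 difference 0.31, SE 0.046, adjusted p = 1.16e-04), a rise of 23.9%. All 4 arrays of experiments 1 and 2 lay below both arrays of experiment 3 in Mad2l1. Bub3 and Ttk did not pass the test (0.09 and -0.13). Securin (Pttg1) read 2356 and 2223 in experiment 1, 2122 and 1939 in experiment 2, and 2405 and 2423 in experiment 3 (log2 difference 0.16, SE 0.054, adjusted p = 0.0289), and was the other gene that rose, while separase (Espl1) differed by -0.05 and was not called. Of the APC/C regulators, Fzr1 read 1191 and 1384 in experiment 1, 1278 and 1338 in experiment 2, and 1143 and 1047 in experiment 3 (log2 difference -0.24, SE 0.074, adjusted p = 0.0204). Fbxo5 read 4334 and 4438 in experiment 1, 4413 and 4331 in experiment 2, and 4063 and 4019.8 in experiment 3 (log2 difference -0.12, SE 0.041, adjusted p = 0.0408). The 95% interval of Fbxo5, -0.20 to -0.03, includes the median of all genes. Cdc20, the activator that Mad2 holds back, did not pass the test at -0.02 (interval -0.10 to 0.05), nor did Ube2c at -0.05.

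Set beside the promoter sequences, the 2 genes that were higher, Mad2l1 and Pttg1, were both among the 4 with neither element. Of all promoters counted, 50.3% had neither. Bub3, whose experiment 3 arrays also lay above all 4 others, held both elements and was not called. Of the 14 lower genes with a promoter counted, 10 held both elements and 1 neither (Nusap1). Among the 13 not called, 10 held both and 1 neither (Birc5).

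Other probe sets of the same genes gave a mixed picture. The 19 called genes had 21 other probe sets above the filter, in 13 genes, of which 14 moved in the same direction. Kif11 had -0.33, -0.26 and -0.26 on its 3 probe sets, Anln -0.49 and -0.34, Cdc25c -0.39 and -0.41, and Pttg1 0.16, 0.28 and 0.63. The last Pttg1 probe set had a mean signal of 58 and was high only on the uninduced array of experiment 3, at 132.2. Its GemKD array of experiment 3 read 40.5, inside the range of 33.5 to 67.8 in experiments 1 and 2. Against this, the second probe sets of Top2a and Bub1, at mean signals of 377 and 102, gave 0.35 and 0.51. That of Aurkb, at 1174, gave 0.02. The other probe sets of Kif2c, at 864, 806 and 147, gave 0.10, -0.15 and 0.16. Of the 12 other probe sets above a signal of 300, 9 moved in the same direction, and those that did not were of Aurkb, Kif2c and Top2a. Averaging all probe sets of a gene left 12 mitotic genes called in place of 19. A fit without the trend of variance with intensity left 6 of the 35. In that fit 3031 of all 14185 genes were called, against 4822 in the main fit. Called under all 16 alternatives to this comparison were Anln, Kif11, Prc1, Cdc25c and Mad2l1, and each of the other 14 lost its call under at least 1.

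Markers of other states moved with the same contrast. Summed over the 6 pluripotency genes, signal was 19462 to 21537 in experiments 1 and 2 and 15006 to 15600 in experiment 3, with 4 of 6 lower and 0 higher (Nanog, log2 difference -2.61). The 5 primed epiblast genes summed to 13749 to 15853 and 20560 to 20905, with 4 higher (Fgf5 2.17). The 7 neural progenitor genes summed to 5093 to 6161 and 2862 to 3184, with 4 lower and 1 higher (Pax6 -2.24, Sox1 -2.04). The 4 apoptosis and p53 genes summed to 8442 to 9874 and 10899 to 11368, with 3 higher and 1 lower (Cdkn1a, an inhibitor of Cdk activity, 0.69), and the 6 fibroblast genes to 4241 to 5004 and 3176 to 3255, with 4 lower and 1 higher. Of 4 neuronal genes 3 were higher and 1 lower, of 3 trophoblast genes 1 was higher, and of 4 mesoderm and 4 endoderm genes 0 were called. The part of these states in the mitotic differences was not tested. Dcx, Mixl1, Afp, Gata3 and Elf5 lay below the filter. Over these and the pathway lists that follow, 160 genes in all, 0 were called in GemKD against control (limma). At an unadjusted p under 0.05 there were 1 without the block and 13 with it (8.12%, against 4.76% of all genes).

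The other genes of the mitotic machinery likewise had 0 called in GemKD, and calls in both directions in experiment 3, to be read beside 22.1% lower and 11.9% higher among all genes. Values below are log2 differences. Of 13 APC/C subunits and partners, 1 was higher and 2 lower in experiment 3 (median -0.07), among them the small subunit Cdc26 at 0.46 and the catalytic core subunit Anapc2 at -0.20. Of 11 genes of mitotic entry tested, 1 was higher and 3 lower (median -0.13). The lower ones included Ensa, a Greatwall substrate that inhibits PP2A, at -0.46 and Bora, a cofactor of Aurora A, at -0.30, and the higher was Cdc25a at 0.36. Of 15 CENP proteins 5 were lower and 0 higher (median -0.06), with Cenpc1, which bridges centromeric nucleosomes and the kinetochore, at -0.40.

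Outer kinetochore genes had 6 of 17 lower and 0 higher (median -0.09), including Kntc1 (Rod), which recruits dynein, at -0.40 and Dsn1, a Mis12 complex subunit, at -0.34. Of 7 checkpoint and passenger partners 2 were lower, the protectors of centromeric cohesin Sgo2a (-0.68, adjusted p = 5.26e-07) and Sgo1 (-0.45). The third called, Trip13, the ATPase that remodels Mad2, was higher at 0.23. In condensin and cohesin 6 of 15 were lower and 2 higher (median -0.10), with the cohesin release factor Wapl at -0.32 and sororin (Cdca5), which opposes it, at 0.36. Of 24 other spindle genes 7 were lower and 1 higher (median -0.11), with the abscission factor Cep55 at -0.51, Hmmr at -0.45 and Ckap2, which binds spindle microtubules, at 0.45. Of 15 regulators of G2 and M phase transcription 4 were lower and 2 higher (median -0.06). They included B-Myb (Mybl2), which joins MuvB at these promoters, at -0.68, the pocket protein Rbl1 (p107) at -0.46, the NF-Y subunit Nfya at -0.43 and the repressor E2f7 at 0.39. In GemKD cells the same regulators had log2 differences from control of 0.13 for Mybl2 and 0.20 for Foxm1, the forkhead activator of G2 genes, and neither passed the test.

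The third comparison set experiment 2 against experiment 1, which differ in line and hairpin. Of all genes 0.106% were called and 0 of the 35 mitotic genes were (limma, smallest adjusted p among them 0.937), while 2, Pttg1 and Incenp, had an unadjusted p under 0.05 (4.46% of all genes). Pttg1 differed by -0.17 and Incenp by 0.18 on the log2 scale, and the median over the 35 was 0.0091. The difference of Cenpe was -0.30 over all arrays, and -0.56 and -0.74 when the experiment 1 or the experiment 2 GemKD array was left out. When the low experiment 2 control was left out it was 0.15. The second Cenpe probe set read 669 and 605 in experiment 1 and 684 and 650 in experiment 2. Leaving out an array left 1 experiment with a single array, which is assumed to vary like the others.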

How the data were processed

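The deposited values are the authors' processed signal intensities on a linear scale, with 1 value per probe set and array. Which software and scaling made them is not stated in the labels or files. Each value was taken as log2 of the intensity plus 16. Symbols came from the platform annotation: of 45037 probe sets, 34945 had 1 symbol, 932 several and 9160 none. Each gene was read from its probe set with the highest mean, and genes at or below the 30th percentile of mean signal (20.1) were left out.

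Tests were run across 14185 genes with limma 3.58.1 (R 4.3.3), with lmFit, eBayes with an intensity trend, and Benjamini-Hochberg adjustment at 0.05. GemKD was compared with control without a block, as the main setting, and with the experiment as a block. Array pairs came from 1 experiment each, per the labels, and their deviations from the group means correlated at 0.489, 0.472 and 0.714. Contrasts between experiments had treatment as a covariate, and the hairpin test was an interaction of hairpin and treatment. The procedure was checked on simulated data. Alternatives were quantile normalization, the pseudocount, the filter, the mean of all probe sets, no intensity trend, no covariate and leaving out arrays or experiments.

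The members and lists were chosen with earlier results of these data known. Named were the members called in a comparison, those with the largest differences, fixed examples of each role and the largest changes in each list. Of 169 list entries 167 matched a gene, 5 of them under a newer symbol, and 160 were tested. The number of arrays limits the precision.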

Additional observations from a re-analysis of the deposited data

Results flagged for a closer look

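In the test of the difference between the hairpins in the log2 ratio of GemKD to control, with the experiment as a block, 5 of the genes described here were called (limma), among 46 of 14185 genes (0.324%). The shRNAmir 9 line has 1 array per arm, so the spread comes from the other line and from all genes, and the p-values carry no repeat of that line. Malat1, chosen after its values were seen, differed by 0.91 (adjusted p = 1.92e-28), with ratios of -0.16, 0.75 and -0.16 in experiments 1, 2 and 3. Cenpe differed by 0.88 (adjusted p = 2.56e-05), with ratios of -0.18, 0.76 and -0.07. Aspm differed by 0.68 (adjusted p = 0.00554), with ratios of -0.02, 0.71 and 0.09. Cdc25a differed by 0.55 (adjusted p = 0.00613), with ratios of -0.04, 0.59 and 0.11. In these 4 genes the uninduced array of experiment 2 gave the lowest of the 6 signals. Gmnn differed by 0.59 (adjusted p = 0.00227), with ratios of -1.84, -1.05 and -1.44, and there the GemKD array of experiment 2 read higher than the other GemKD arrays. Without the block the adjusted p was 0.99997 in all 5. The shRNAmir 9 line was used in 1 experiment, so hairpin, line and experiment cannot be told apart.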

How the results depend on the processing

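In the comparison of GemKD with control, the count of mitotic genes called was 0 under every alternative run. Over all genes the main count of 1 became 0 without the intensity trend, 5 with the replicate block, 28 with the block and without experiment 3 (chosen after seeing the data), and 0 to 3 when arrays or experiments were left out. The median over the mitotic genes then ranged from -0.068 to 0.043. Within experiment 3, 1 mitotic gene of the 35 passed 1.2-fold in some settings. It was Cdc25b with a pseudocount of 1 (26.7% of all genes) or quantile normalization (21.3%), and Pttg1 with the mean of all probe sets (18.7%). For experiment 3 against experiments 1 and 2, the 19 calls became 12 with the mean of all probe sets, 6 without the trend and 14 to 17 with arrays or experiments left out. The median became -0.10 with quantile normalization (all genes -0.011) and -0.050 with the mean of all probe sets (all genes -0.018). It ranged from -0.16 to -0.12 with arrays left out. Of all 14185 genes, the 4822 called became 3031 without the trend and 3971 to 4237 with arrays left out. With the mean of all probe sets the sign turned in Bub1 (0.17) and Top2a (0.058), neither then called. For experiment 2 against experiment 1, the 15 genes called became 7 with quantile normalization or no treatment covariate, 2 with no filter, 1 without the trend and 21 to 114 with arrays left out, with 0 to 2 mitotic genes among them. The hairpin test called 0 genes without a block, 46 with the replicate block, and, without the block, 0 to 1 with arrays left out. The cause of these differences was not tested. Among the named genes the replicate block also turned Gmnn from not called (adjusted p = 0.338) to called (2.76e-06) in GemKD against control, and it changed no call of a mitotic gene in that comparison.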
